A study of Mus musculus with 56 samples.

Results

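The 5 genes described here belong to a known switch between non-neuronal and neuronal splicing or are close relatives of its genes. They are the polypyrimidine tract binding proteins Ptbp1, Ptbp2 and Ptbp3 and the serine and arginine repeat proteins Srrm3 and Srrm4. They were taken by symbol from 6 gene tables that list between 12259 and 23087 genes each, and their exons were taken from 11 tables of skipped exons. The series holds 56 bulk mouse RNA-seq libraries. Wild-type (WT) and Fmr1 knockout (KO) cortex, hippocampus, cerebellum, liver, muscle and testis were sequenced, with 3 libraries a genotype and tissue. Fmr1 encodes FMRP, the RNA-binding protein lost in fragile X syndrome. N2a cells, a mouse neuroblastoma line, received non-targeting siRNA (siNT, 2 libraries) or siRNA to Fmr1 (siFmr1, 3 libraries). In a second N2a experiment with 3 libraries a group, all cells received an siRNA and a plasmid: siNT, siFmr1 or siMbnl1 with the control plasmid pcDNA, siFmr1 together with a nuclear form of MBNL1 (nMBNL1), or siMbnl1 together with a cytosolic form (cMBNL1), both FLAG-tagged. MBNL1 is a muscleblind splicing factor. The labels give no age, sex or strain of the mice, and they do not say whether replicates were separate animals or cultures, so p-values measure the spread between these libraries, which may be technical.

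PTBP1 binds pyrimidine-rich stretches beside exons and keeps many neuronal exons out of transcripts in cells that are not neurons. In non-neuronal cells it also causes skipping of a short exon of Ptbp2, the paralog of neurons and germ cells, which puts the Ptbp2 transcript out of frame and leads to its decay. Neurons lower PTBP1 and raise PTBP2. SRRM4 and its relative SRRM3 act in the other direction and promote inclusion of microexons, the very short exons of neuronal transcripts.

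A set of 5 exons of these genes carried reads of both the included and the skipped form in several tables, and their sequences are shown because the splicing results rest on them. Coordinates are of GRCm38 and exon sequences are from GENCODE M21. Capitals mark the exon and lower case the 10 flanking bases of the spliced transcript on each side. The Ptbp1 exon of 78 bases lies on the plus strand at chr10:79860117-79860194, keeps the reading frame and is coding in 1 annotated transcript.
Ptbp1 78-nt exon: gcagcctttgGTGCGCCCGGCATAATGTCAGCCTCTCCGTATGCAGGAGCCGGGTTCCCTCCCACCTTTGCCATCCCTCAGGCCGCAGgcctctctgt
The paralogous exons of 34 bases of Ptbp1 (chr10:79862014-79862047, plus strand), Ptbp2 (chr3:119724612-119724645, minus strand) and Ptbp3 (chr4:59485339-59485372, minus strand) shift the frame when skipped. Both annotated transcripts that skip the Ptbp1 exon, and both that skip the Ptbp2 exon, are annotated as targets of nonsense-mediated decay. No annotated transcript skips the paralogous Ptbp3 exon, and 1 table lists it, with too few reads for the test.
Ptbp1 34-nt exon: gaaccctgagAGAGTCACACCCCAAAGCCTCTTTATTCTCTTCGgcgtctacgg
Ptbp2 34-nt exon: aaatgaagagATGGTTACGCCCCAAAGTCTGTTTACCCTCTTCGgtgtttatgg
Ptbp3 34-nt paralogous exon: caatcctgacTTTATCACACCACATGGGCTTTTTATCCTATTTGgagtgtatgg
The Ptbp1 and Ptbp2 exons share 26 of 34 positions, against 22 for Ptbp1 and Ptbp3 and 21 for Ptbp2 and Ptbp3. The skipped exon of Ptbp3 is another one, also 34 bases long, near the start of the gene (chr4:59546149-59546182, minus strand). It matches the Ptbp1 and Ptbp2 exons at 5 positions each and is skipped in 4 annotated transcripts, of which 1 is a decay target. Srrm3 has a coding exon of 30 bases that keeps the frame (chr5:135852892-135852921, plus strand).
Ptbp3 34-nt exon: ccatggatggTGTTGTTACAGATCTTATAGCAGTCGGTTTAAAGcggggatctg
Srrm3 30-nt exon: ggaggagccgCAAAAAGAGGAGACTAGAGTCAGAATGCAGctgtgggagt

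Brain libraries held 26264368 to 41384652 counts, liver 13230785 to 16168225, muscle 13934559 to 15386794, testis 13752391 to 15879775 and the first N2a experiment 13273331 to 16268865. Values of the co-transfection were deposited normalized, so their depth is unknown. Fmr1 in KO libraries was 25.6% to 32.5% of WT in 5 tissues and 65.3% in muscle, where the difference missed the threshold (edgeR adjusted p = 0.0734). It was 21.0% of siNT in the first siFmr1 experiment, where it also missed (edgeR adjusted p = 0.9999), and 19.2% in the second. Mbnl1 was 33.8% of siNT after siMbnl1, 276% with nMBNL1 and 450% with cMBNL1. All 6 of 6 neuronal markers were listed in brain, 4 of 4 hepatocyte markers in liver, 4 of 4 muscle fibre markers in muscle and 5 of 5 germ cell markers in testis. In N2a cells 4 of 6 neuronal markers were listed, and Rbfox3 and Nefm were not.

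Levels across tissues were compared per length, in TPM, which scales reads to transcript length and library size. Ptbp1 was highest in the neuroblastoma line and lowest in muscle and cortex, and Ptbp2 followed a different order, with its highest levels in brain. In siNT N2a cells Ptbp1 stood at 249 and 236 TPM. Testis followed at 74.7 ± 2.70 TPM (SD, n = 3) and liver at 73.0 ± 15.9, whose ranges overlapped. Cerebellum held 39.7 ± 1.42, hippocampus 29.0 ± 5.64, cortex 21.4 ± 1.33 and muscle 13.3 ± 3.27 TPM. Among these neighbours only testis and liver, and hippocampus and cortex, overlapped. Brain, other tissues and N2a cells were prepared or normalized separately, so this order is a description without a test.

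Ptbp2 was at 95.9 ± 9.58 TPM in WT cerebellum, 93.7 ± 5.36 in hippocampus and 93.6 ± 1.70 in cortex, and the 3 regions overlapped. Testis, where PTBP2 is known to act in germ cells, held 54.8 ± 2.52 TPM. N2a cells had 32.9 and 12.7 TPM, muscle 11.3 ± 2.12 and liver 4.90 ± 1.69. The ratio of Ptbp1 to Ptbp2 TPM therefore spanned 0.228 ± 0.0175 in WT cortex to 15.4 ± 3.04 in WT liver. It was 0.312 ± 0.0752 in hippocampus, 0.416 ± 0.0429 in cerebellum, 1.17 ± 0.162 in muscle and 1.37 ± 0.107 in testis, and 7.57 and 18.6 in the 2 siNT libraries of N2a cells. In bulk tissue, fewer cells of a type and less RNA per cell cannot be told apart.

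Ptbp3, the paralog known best from blood cells, varied less across the tissues than Ptbp1 or Ptbp2. Its level was 22.7 ± 6.93 TPM in liver, 15.9 ± 1.19 in hippocampus, 14.6 ± 2.11 in cortex and 11.97 ± 1.19 in cerebellum, each overlapping its neighbour in that order. Testis held 10.1 ± 0.346 TPM and muscle 4.98 ± 1.18, each apart from the other tissues. The 2 siNT libraries of N2a cells differed at 26.1 and 5.63 TPM.

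Both Srrm genes were highest in cerebellum. Srrm3 was at 50.2 ± 2.61 TPM there, 31.5 ± 1.25 in cortex and 25.2 ± 0.396 in hippocampus, with no overlap between the regions. N2a cells held 13.9 and 7.70 TPM. Testis had 0.213 ± 0.0404 TPM, from 8, 6 and 7 counts in the WT libraries, and the liver and muscle tables do not list the gene. Srrm4 was at 34.02 ± 0.631 TPM in cerebellum, 19.2 ± 1.11 in cortex and 17.9 ± 0.970 in hippocampus, of which cortex and hippocampus overlapped. It was at 12.3 and 5.81 TPM in N2a cells, 2.29 ± 1.36 in liver and 0.637 ± 0.0839 in testis, and the muscle table does not list it.

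**Figure D1:**
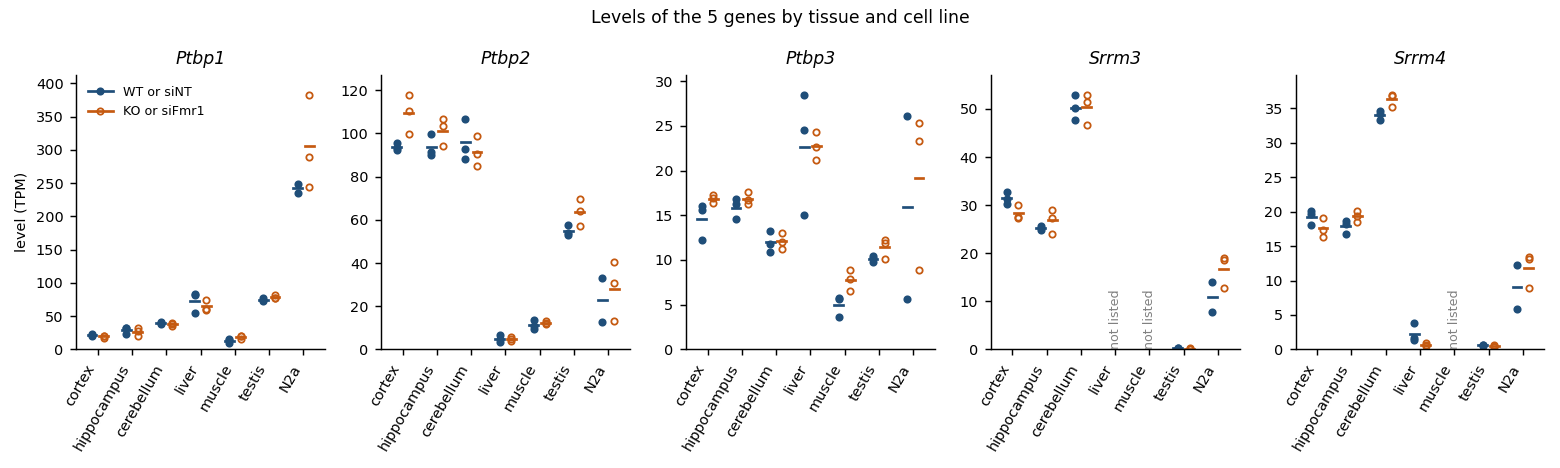
Level of each gene in TPM (linear axes from 0, a scale of its own for each gene) in every library of the 6 tissues and the first N2a experiment; filled points are WT or siNT, open points KO or siFmr1, and short lines are group means. Ptbp1 is highest in N2a cells (siNT mean 242.5 TPM), Ptbp2 in the 3 brain regions (93.6 to 95.9 in WT) and both Srrm genes in cerebellum.

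Genes with the most similar profile were sought by Pearson correlation of the group means of log2(CPM + 1) over all count tables that list a member. CPM scales counts to library size only. These groups share libraries, depth and preparation within a table, and no p is given. Spc24 (r = 0.989), Tuba1c (0.984) and Dna2 (0.982) were most like Ptbp1 over 14 groups. Kifap3 (0.991), Vamp4 (0.990) and Dcp1a (0.989) came first for Ptbp2, and Edem1 (0.957), Nipsnap3b (0.953) and Serp1 (0.949) for Ptbp3. Over 10 groups, A430033K04Rik (0.9991), Cltb (0.998) and Srrm4 (0.998) were most like Srrm3. Over 12 groups, Atn1 (0.986), Cables1 (0.986) and Tacc2 (0.985) were most like Srrm4.

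The WT brain regions differed in 4 of the 5 genes. In CPM, Ptbp1 was at 25.3, 24.3 and 22.1 in WT cortex, 25.2, 36.4 and 35.7 in hippocampus and 43.0, 40.6 and 39.9 in cerebellum. Cortex and hippocampus overlapped in 1 library, and cerebellum lay above both. With edgeR's quasi-likelihood test, adjusted by Benjamini-Hochberg over all genes, cortex was lower than cerebellum by a log2 fold change of -0.78 ± 0.12 (SE; adjusted p = 0.000136). Cortex was also lower than hippocampus (-0.44 ± 0.12, adjusted p = 0.0126 by edgeR), but without the second hippocampus library the difference was -0.36 with an adjusted p of 0.0542. Hippocampus was lower than cerebellum (-0.34 ± 0.12, edgeR adjusted p = 0.0246). That call was lost when any 1 of the 3 cerebellum libraries was left out, with adjusted p of 0.108, 0.0722 and 0.0602 for libraries 1, 2 and 3.

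Within hippocampus, Ttr, a transcript of the choroid plexus, varied beside Ptbp1. Ttr stood at 7.22, 3874 and 3004 CPM in the WT and at 1876, 10.7 and 4245 CPM in the KO libraries. The pair of libraries with the lowest Ttr, WT 1 and KO 2, were also the lowest in Ptbp1, at 25.2 and 23.3 CPM, while the other 4 held 30.6 to 36.4 CPM. Of the 4 hepatocyte markers, Ttr alone is listed in brain. Cortex had 1.68 to 208 CPM of Ttr and cerebellum 325 to 1237. The part of this difference in the Ptbp1 comparisons was not tested.

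**Figure D2:**
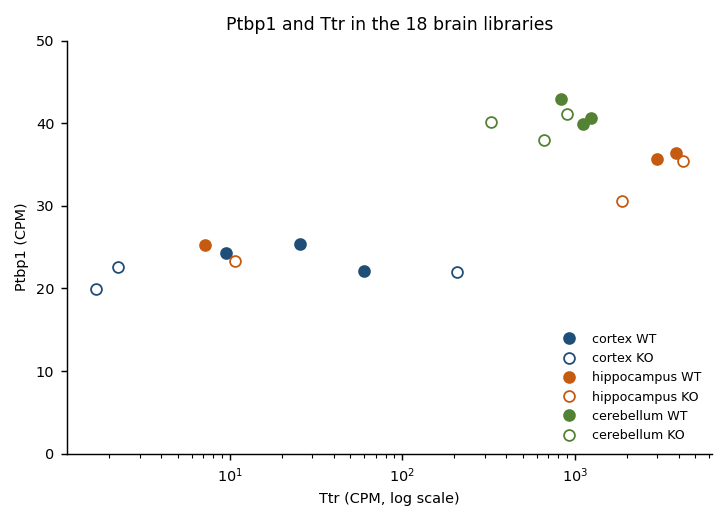
Ptbp1 (CPM, linear axis) against Ttr (CPM, log axis) in the 18 brain libraries, by region (colour) and genotype (filled WT, open KO). The 2 hippocampus libraries with Ttr at 7.22 and 10.7 CPM lie at 25.2 and 23.3 CPM of Ptbp1, among the cortex libraries, and the other 4 lie between 30.6 and 36.4.

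Ptbp2 did not pass the test between WT regions, with 117, 114 and 117 CPM in cortex, 124, 112 and 112 in hippocampus and 107, 102 and 121 in cerebellum (edgeR adjusted p = 0.991, 0.311 and 0.319). The cerebellum comparisons passed without the third cerebellum library, which held the highest value of that region (cortex 0.16 higher, adjusted p = 0.0313; hippocampus 0.18 higher, adjusted p = 0.0187). With KO in place of WT libraries they passed as well, at 0.33 and 0.25 (edgeR adjusted p = 0.00169 and 0.00904). Ptbp3 held 32.6, 42.4 and 41.0 CPM in cortex, 38.5, 43.9 and 43.1 in hippocampus and 26.7, 29.1 and 31.9 in cerebellum, which lay below both. It was higher than in cerebellum by 0.40 ± 0.10 in cortex and by 0.52 ± 0.10 in hippocampus (log2, SE; edgeR adjusted p = 0.00494 and 0.000930).

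Srrm3 and Srrm4 were higher in cerebellum than in either other region in every WT library. Srrm3 held 46.5, 48.1 and 44.1 CPM in cortex, 36.5, 37.2 and 37.1 in hippocampus and 72.2, 65.4 and 67.1 in cerebellum. Log2 differences from cerebellum were -0.56 ± 0.06 for cortex and -0.88 ± 0.06 for hippocampus (SE; edgeR adjusted p = 6.44e-06 and 1.28e-07). Cortex was above hippocampus by 0.32 ± 0.06 in WT (edgeR adjusted p = 0.00136), and by 0.05 in the KO libraries (edgeR adjusted p = 0.629). Srrm4 held 58.8, 56.5 and 51.6 CPM in cortex, 52.8, 53.4 and 48.8 in hippocampus and 89.5, 93.3 and 89.9 in cerebellum. It was lower than in cerebellum by 0.71 ± 0.06 and 0.81 ± 0.06 on the log2 scale (SE; edgeR adjusted p = 1.25e-06 and 3.57e-07).

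In all, 2 members passed between WT cortex and hippocampus, where 43.4% of all genes tested passed. Between cortex and cerebellum 4 passed (67.9% of all genes), and 4 between hippocampus and cerebellum (68% of all genes), so most genes differed between these regions too.

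With Fmr1 KO none of the members passed the threshold in any tissue by edgeR. In cortex 0 of 5 passed with edgeR, where 0.0203% of all genes did, and none was called by DESeq2 either. Before adjustment 2 of the 5 lay under 0.05, as did 3110 of 14802 genes tested. Ptbp2 held 117, 114 and 117 CPM in WT and 122.7, 143 and 136 in KO cortex, so all KO libraries lay above the WT libraries. Its log2 fold change was 0.21 ± 0.06 (SE; adjusted p = 0.120 by edgeR). Srrm3 held 46.5, 48.1 and 44.1 CPM in WT and 39.9, 39.7 and 43.8 in KO cortex, again without overlap and in the other direction (-0.17 ± 0.07, adjusted p = 0.198 by edgeR). Ptbp1 at 22.6, 22.0 and 19.9 CPM in KO cortex, Ptbp3 at 44.4, 42.3 and 45.3 and Srrm4 at 46.6, 54.1 and 49.96 overlapped with WT. Their log2 fold changes were -0.15, 0.19 and -0.15. The ratio of Ptbp1 to Ptbp2 TPM was 0.179 ± 0.0226 (SD, n = 3) in KO cortex, with a highest KO value of 0.204 and a lowest WT value of 0.208. Of 3 blood markers 2 were listed, and their summed level was 69.6 to 85.1 CPM in WT and 62.7 to 64.5 in KO cortex; their part was not tested.

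Hippocampus (0 of 5 passed, 0.209% of all genes) gave 0 members at an unadjusted p under 0.05 with edgeR, against 1852 of 14843 genes, and DESeq2 called none. Ptbp1 was 30.6, 23.3 and 35.4 CPM in KO, inside the WT range apart from the second library. Ptbp2 held 129.8, 133.9 and 116.8 CPM in KO, Ptbp3 47.1, 43.6 and 44.0, Srrm3 35.8, 40.7 and 42.6 and Srrm4 58.9, 56.8 and 53.3, and each overlapped with WT. Log2 fold changes of the 5 ran from -0.12 for Ptbp1 to 0.13 for Ptbp2. Summed oligodendrocyte markers (4 of 4 listed) were 4821 to 5174 CPM in WT and 4004 to 4110 in KO, and astrocyte markers (4 of 4) 5522 to 5839 in WT and 5992 to 6670 in KO; their part was not tested.

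In cerebellum 0 of 5 passed, against 0.226% of all genes, with no call by DESeq2. Before adjustment 1 of the 5 lay under 0.05, as did 1276 of 14627 genes tested. Srrm4 held 89.5, 93.3 and 89.9 CPM in WT and 100.7, 99.6 and 94.3 in KO, with no overlap and a log2 fold change of 0.12 ± 0.05 (SE; adjusted p = 0.516 by edgeR). Summed endothelium and mural markers (4 of 4 listed) were 81.98 to 94.88 CPM in WT and 94.99 to 101.05 in KO, also without overlap. Genes of the Sertoli cell list (3 of 4 listed, without Wt1) summed to 127 to 143 CPM in WT and 145 to 154 in KO. In brain these genes do not stand for Sertoli cells, and in hippocampus their sum was lower in KO. The part of either sum was not tested. Log2 fold changes of the other 4 lay between -0.05 and 0.04. Ptbp1 was at 38.0, 40.2 and 41.1 CPM in KO, Ptbp2 at 99.5, 114.9 and 104.1, Ptbp3 at 28.1, 32.2 and 29.5 and Srrm3 at 64.6, 70.7 and 72.0, all overlapping with WT. Whether the genotype effect differs between regions was tested directly by interaction terms over all 18 brain libraries. None of the 5 passed for cortex against hippocampus (0% of all genes), cortex against cerebellum (0%) or hippocampus against cerebellum (0.00645%) with edgeR, and DESeq2 called none. Unadjusted p under 0.05 were found for 2, 2 and 0 members, and for 1561, 2349 and 823 of 15504 genes tested. Among the members the difference farthest from 0 was that of Srrm4, with a cortex effect lower than the hippocampus effect by 0.27 ± 0.09 on the log2 scale (SE; adjusted p = 0.369 by edgeR).

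In liver 0 of 4 members tested passed with edgeR, where 0.411% of all genes did. For 1 the unadjusted p was under 0.05, as for 1365 of 11928 genes tested. With DESeq2 1 member passed, where 277 genes did in all, against 49 with edgeR. Srrm4 had 102, 131 and 243 counts in WT and 41, 62 and 32 in KO liver, or 6.96, 7.94 and 18.5 against 2.82, 4.63 and 2.19 CPM. All KO libraries lay below all WT libraries, and the third WT library was the highest. With edgeR the log2 fold change was -1.78 ± 0.42 (SE; adjusted p = 0.136), a 3.44-fold lower level in KO. Without the first WT library it was -2.03 with an adjusted p of 0.0367, and DESeq2 gave -1.79 with an adjusted p of 0.000527. The authors' deposited table gives -1.80 with an adjusted p of 0.00129. Over all alternatives tried the adjusted p ran from 0.000527 to 0.460. Summed fibroblast markers (4 of 4 listed) were 144 to 169 CPM in WT and 209.6 to 212 in KO, and of 6 neuronal markers 5 are not listed there; their part was not tested.

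The Ptbp genes overlapped between genotypes in liver. Ptbp1 held 112, 149 and 157 CPM in WT and 113, 136 and 111 in KO (log2 fold change -0.21, edgeR adjusted p = 0.674). Ptbp2 held 7.64, 13.6 and 9.58 CPM in WT and 7.76, 10.1 and 11.6 in KO, and Ptbp3 71.8, 104.9 and 125 in WT and 98.0, 103.6 and 93.3 in KO. Both log2 fold changes, -0.06 and -0.03, were smaller than their SE of 0.24 and 0.19.

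Muscle gave 0 of 3 members tested, where 4.04% of all genes passed, and none was called by DESeq2. For 1 the unadjusted p was under 0.05, as for 3281 of 12688 genes tested. Ptbp3 held 17.4, 26.3 and 25.7 CPM in WT and 31.8, 26.6 and 33.6 in KO muscle, without overlap (log2 fold change 0.41 ± 0.16, SE; adjusted p = 0.158 by edgeR). Ptbp1 overlapped at 19.6, 28.8 and 30.6 CPM in WT and 33.9, 26.2 and 32.3 in KO, as did Ptbp2 at 21.3, 23.7 and 29.5 in WT and 25.3, 22.8 and 22.0 in KO. Summed fibroblast markers (4 of 4 listed) were 1695 to 2684 CPM in WT and 3443 to 4557 in KO muscle. Microglia and macrophage markers (4 of 4) were 40.6 to 49.6 CPM in WT and 73.8 to 79.9 in KO. Neither pair of ranges overlapped, and their part in the muscle values was not tested.

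Testis gave 0 of 4 members tested, where 4.27% of all genes passed, and none was called by DESeq2. For 2 of the 4 the unadjusted p was under 0.05, as for 2836 of 15465 genes tested. Ptbp2 held 99.2, 100.1 and 111 CPM in WT and 110.3, 119.9 and 130.5 in KO testis, where the third WT and the first KO library overlapped. The log2 fold change of 0.22 ± 0.07 (SE) missed the threshold narrowly (edgeR adjusted p = 0.0576). It passed without the first KO library (0.28, adjusted p = 0.00633) and without the third WT library (0.27, adjusted p = 0.0333), and ran from 0.00633 to 0.399 in adjusted p over the alternatives. The authors' deposited table gives 0.22 with an adjusted p of 0.0697. Ptbp3 did not overlap in CPM, at 40.6, 41.0 and 39.7 in WT and 41.2, 48.6 and 46.8 in KO (0.17 ± 0.08, edgeR adjusted p = 0.229). In TPM it did, at 9.75 to 10.41 in WT and 10.1 to 12.27 in KO. Ptbp1 likewise held 124, 132 and 126 CPM in WT and 136, 138 and 131 in KO, with overlap in 1 library (0.09, edgeR adjusted p = 0.496). Srrm4 was at 33, 48 and 42 counts in WT and 34, 46 and 28 in KO testis, and Srrm3 at 8, 6 and 7 and at 11, 2 and 3 counts, too few for the test. Summed Leydig cell markers (4 of 4 listed) were 1006 to 1312 CPM in WT and 934 to 981 in KO; their part was not tested.

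The first N2a experiment gave 0 of 5 members, where 0% of all genes passed, with no call by DESeq2. No member had an unadjusted p under 0.05, against 47 of 12187 genes tested. Ptbp1 held 389 and 638 CPM with siNT and 371, 645 and 605 with siFmr1, so the first library of each group stood below the other 3. Per length the order differed, with 249 and 236 TPM in the siNT libraries. Ptbp2 was at 56.8 and 37.7 CPM with siNT and 51.7, 75.2 and 30.001 with siFmr1, and Ptbp3 at 95.4 and 35.4 with siNT and 89.7, 91.0 and 43.1 with siFmr1. These 3 genes spread more within a group than between groups. Srrm3 did not overlap in CPM, at 28.4 and 27.1 with siNT and 37.0, 41.4 and 34.7 with siFmr1 (log2 fold change 0.44 ± 0.28, SE; adjusted p = 0.9999 by edgeR). In TPM the groups did overlap, at 7.7 to 13.94 with siNT and 12.81 to 18.93 with siFmr1. Srrm4 held 48.9 and 39.9 CPM with siNT and 52.1, 55.9 and 47.1 with siFmr1, which overlapped. Of 4 astrocyte markers 1 was listed, at 49.7 to 67.6 CPM with siNT and 10.9 to 48.9 with siFmr1, and its part was not tested.

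**Figure D3:**
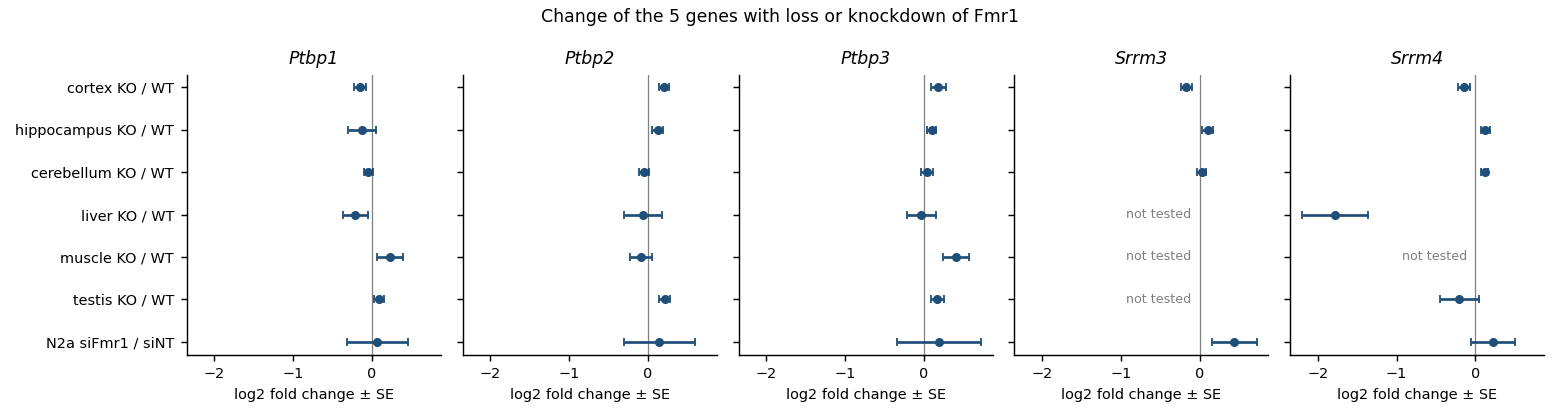
Log2 fold change of each gene (points) with its SE (bars) for KO over WT in 6 tissues and siFmr1 over siNT in the first N2a experiment, from edgeR. Most points lie within 0.5 of 0, none passed the threshold after adjustment, and Srrm4 in liver is farthest from 0 at -1.78.

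In the co-transfection experiment 2 to 5 of the members passed in each comparison with siNT, where a large share of all genes did. Values are those the authors deposited as normalized, tested with limma on log2(value + 1) over all 15 libraries, with Benjamini-Hochberg adjustment over all genes. All 4 comparisons with siNT share the same 3 control libraries. After siFmr1, 3 of the 5 passed (37% of all genes), after siMbnl1 2 (32.8%), with siFmr1 and nMBNL1 all 5 (41.1%) and with siMbnl1 and cMBNL1 2 (33.7%). The siNT libraries spread widely in Ptbp3, Srrm3 and Srrm4, and fits of only the 2 groups compared, where the spread is not shared with other groups, are given where they end a call. Several marker sums moved with siFmr1. The neuronal markers (6 of 6 listed) summed to 44030 to 47100 with siNT and 57061 to 58571 with siFmr1, and to 51063 to 57181 with nMBNL1, 43684 to 49466 with siMbnl1 and 43745 to 48626 with cMBNL1. Endothelium and mural markers (4 of 4) summed to 324 to 348 with siNT, 481 to 538 with siFmr1, 476 to 563 with nMBNL1, 273 to 283 with siMbnl1 and 281 to 303 with cMBNL1. Leydig cell markers (4 of 4) summed to 789.6 to 814 with siNT, 398 to 496 with siFmr1, 399.7 to 408 with nMBNL1, 779 to 889 with siMbnl1 and 727 to 875 with cMBNL1. Sums of oligodendrocyte, muscle fibre, germ cell and blood markers were also higher with siFmr1 than with siNT without overlap, and those of microglia and macrophage markers lower. The part of these markers in the values of the members was not tested.

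Srrm3 rose most. It held 557, 814 and 866 with siNT and 1311, 1238 and 1198 with siFmr1, a 1.70-fold higher level without overlap (log2 0.77 ± 0.12, SE; limma adjusted p = 0.000136). With nMBNL1 added to siFmr1 it was at 1005, 984 and 1021, between the others, and above siNT by 0.45 ± 0.12 (limma adjusted p = 0.00670; 0.0645 with only the 2 groups compared). With siMbnl1 it was at 827, 785 and 904, which overlapped with siNT (0.19, limma adjusted p = 0.243). With cMBNL1 it was at 886, 913 and 879.7, all above siNT (0.29, limma adjusted p = 0.0800). That last difference passed without the second siNT library (0.36, adjusted p = 0.0241) or the third (0.41, adjusted p = 0.0173).

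Srrm4, its relative, did not pass after siFmr1. It held 1272, 1918 and 1642 with siNT and 1464, 1518 and 1357 with siFmr1, which lay inside that range (log2 -0.14, limma adjusted p = 0.348). Without the first siNT library the difference was -0.30 with an adjusted p of 0.00771. It was lower than siNT with siMbnl1, at 1214, 1213 and 1242 (-0.38 ± 0.11, SE; limma adjusted p = 0.0135), with cMBNL1, at 1201, 1169.5 and 1260 (-0.39 ± 0.11, adjusted p = 0.0102), and with nMBNL1, at 1119, 1093 and 1212 (-0.48 ± 0.11, adjusted p = 0.00223). With only the 2 groups compared the first and second of these missed the threshold (limma adjusted p = 0.106 and 0.0904).

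Ptbp2 was lower in both siFmr1 groups. Its values were 3411, 3220 and 2905 with siNT, 2385, 2357 and 2484 with siFmr1 and 2323, 2612 and 2618 with nMBNL1, and neither siFmr1 group overlapped with siNT. Log2 differences from siNT were -0.40 ± 0.08 and -0.34 ± 0.08 (SE; limma adjusted p = 0.000706 and 0.00223). The siMbnl1 values of 3050, 3393 and 2869.9 and the cMBNL1 values of 3015, 2973 and 3052 overlapped with siNT (-0.03 and -0.07, limma adjusted p = 0.764 and 0.494).

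Ptbp3 was lower than siNT in all 4 groups, at 2772, 3746 and 2567 with siNT and lower in every other library. The values were 2301, 2181 and 2163 with siFmr1, 2186, 2149.5 and 2382 with siMbnl1, 1866, 2135 and 2295 with nMBNL1 and 2080, 2051 and 2181 with cMBNL1. Log2 differences ran from -0.42 for siMbnl1 and -0.43 for siFmr1 to -0.51 for each MBNL1 plasmid (limma adjusted p = 0.00831, 0.00587, 0.00151 for nMBNL1 and 0.00210 for cMBNL1). With only the 2 groups compared, siFmr1 and siMbnl1 missed the threshold (adjusted p = 0.0516 and 0.0744).

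Ptbp1 passed in 1 of the comparisons with siNT. It was at 14662, 14995 and 15187 with siNT and at 11815, 11911 and 10861 with siFmr1 and nMBNL1, a log2 difference of -0.38 ± 0.07 (SE; limma adjusted p = 0.000582). With siFmr1 alone it was at 13941, 14161 and 12026, below siNT in all libraries (-0.16 ± 0.07, limma adjusted p = 0.0836), and with siMbnl1 at 13320.3, 13083 and 14209 (-0.14, adjusted p = 0.139). With cMBNL1 it was at 16265, 16437 and 16526, above all siNT libraries (0.13, limma adjusted p = 0.163).

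Adding an MBNL1 plasmid to the matching knockdown gave no call in the fit of all 15 libraries. For nMBNL1 on siFmr1 0 of 5 passed, where 1.76% of all genes did. For 3 members the unadjusted p was under 0.05, as for 2901 of 16242 genes tested. Ptbp1 differed by -0.21, Srrm3 by -0.32 and Srrm4 by -0.34 on the log2 scale (limma adjusted p = 0.133, 0.182 and 0.113). All 3 passed with only the 2 groups compared (limma adjusted p = 0.0303, 0.00426 and 0.00367), a fit in which 2812 genes passed, against 286 in the fit of all 15 libraries. For cMBNL1 on siMbnl1 0 of 5 passed, where 2.24% of all genes did. For 1 member the unadjusted p was under 0.05, as for 3149 of 16242 genes tested. Ptbp1 was higher by 0.28 ± 0.07 (SE, limma adjusted p = 0.0519). It passed among genes with a mean value of at least 10 (limma adjusted p = 0.0437), where 451 genes passed. With only the 2 groups compared it passed as well (limma adjusted p = 0.00162), where 2854 genes passed. Between the knockdowns themselves 2 of 5 passed (35.3% of all genes): siFmr1 was below siMbnl1 in Ptbp2 by -0.36 ± 0.08 and above it in Srrm3 by 0.58 ± 0.12 (log2, SE; limma adjusted p = 0.00142 and 0.00145). Srrm4 was higher with siFmr1 by 0.24 (limma adjusted p = 0.0970; 0.00430 with only the 2 groups compared).

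**Figure D4:**
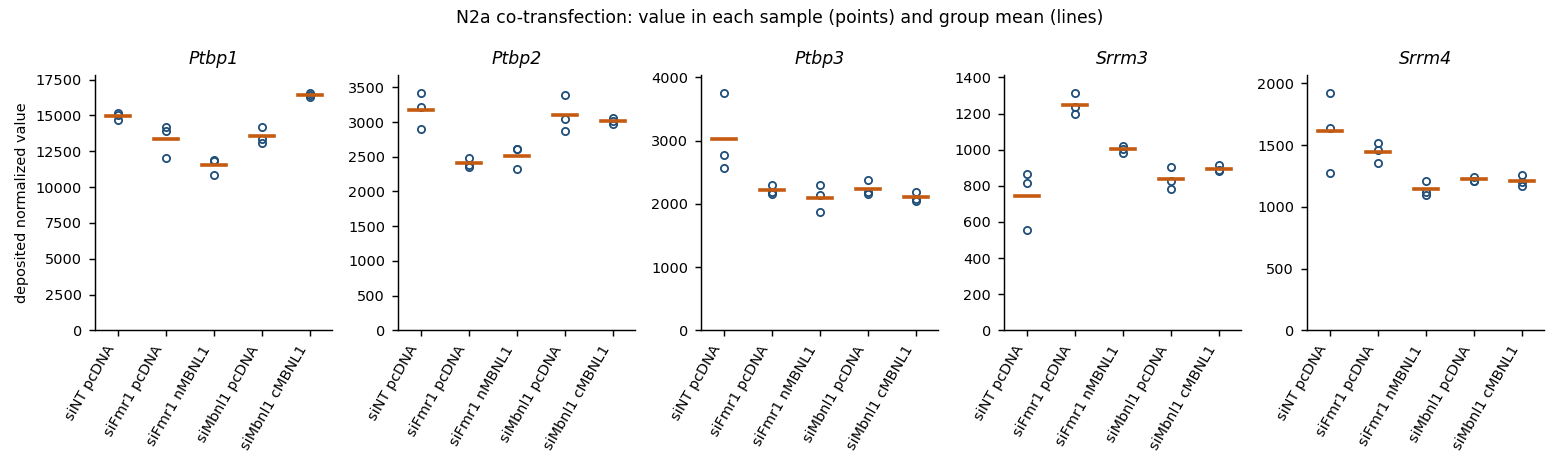
Normalized value of each gene (linear axes from 0) in the 3 libraries (points) of each N2a co-transfection group, with group means (lines). Srrm3 is highest with siFmr1 (1198 to 1311), Ptbp2 is low in both siFmr1 groups (2323 to 2618), and Ptbp3 is lower in every other group than in siNT.

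Genes around the members were read from 3 lists: 24 regulators and partners, such as the neuronal repressor Rest and the PTBP1 partner Raver1, 18 genes with exons known to be repressed by PTBP proteins, and 27 genes with microexons known to be included by SRRM3 or SRRM4. Ptbp1 and Ptbp2 are themselves on the list of PTBP targets, and Rest is on 2 lists. With Fmr1 KO, none of the listed genes passed in cortex, hippocampus, cerebellum, liver or the first N2a experiment. In muscle 2 of 17 PTBP targets tested rose, where 3% of all genes did, among them Flna, which encodes an actin-binding protein (log2 fold change 0.57 ± 0.11, SE; edgeR adjusted p = 0.0293), beside the fibroblast marker values given above. In testis the neuronal RNA-binding proteins Elavl3 (-0.85 ± 0.22) and Nova2 (-0.42 ± 0.13) fell among 21 regulators tested, where 2.28% of all genes fell (log2, SE; edgeR adjusted p = 0.0187 and 0.0472). Summed neuronal markers (2 of 6 listed) were 31.0 to 40.8 CPM in WT and 26.7 to 30.9 in KO testis; their part was not tested. The median log2 fold change of the lists ran from -0.04 to 0.06 in the 6 tissues, with the largest for regulators in hippocampus, where the median of all genes was 0.00.

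Between WT regions the lists were also counted. From cortex to cerebellum, 8 of 24 regulators were higher in cortex and 11 lower, 6 and 8 of 18 PTBP targets, and 10 and 9 of 27 microexon genes, where 33.4% of all genes were higher and 34.6% lower. From cortex to hippocampus, 5 of 24 regulators were higher in cortex and 4 lower, 4 and 7 of 18 PTBP targets, and 5 and 11 of 27 microexon genes, where 22% of all genes were higher and 21.3% lower. From hippocampus to cerebellum the counts were 6 higher in hippocampus and 11 lower, 8 and 7, and 9 and 6, where 33.4% of all genes were higher and 34.6% lower. Between cortex and cerebellum, the RNA-binding protein Khdrbs3 was 3.58 higher in cortex on the log2 scale, Elavl2 1.88 and the transcription factor Mef2c 4.48, and Elavl3 was lower by 0.50 (edgeR adjusted p = 4.92e-12, 8.63e-10, 3.87e-10 and 1.005e-06). The synaptic scaffold Dlg4, whose exon is repressed by both PTBP1 and PTBP2, was higher by 0.99 (edgeR adjusted p = 4.12e-08).

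After siFmr1 in the co-transfection, 3 of 22 regulators rose and 5 fell, with a median log2 difference of 0.03, the same as that of all genes. The splicing factor Nova1 fell by 0.89, Qk by 0.59 and Rest by 0.66, and Elavl4 rose by 0.61 (log2; limma adjusted p = 3.15e-06, 8.80e-05, 0.000604 and 1.87e-05). Of 18 PTBP targets 7 rose and 4 fell (median 0.09), among them Actn1 up by 0.66 and Dlg4 up by 0.57 (limma adjusted p = 0.000199 and 0.000547). Of 26 microexon genes 4 rose and 5 fell (median 0.02), with Apbb1 up by 0.64 and Ap1s2 down by -0.73 (limma adjusted p = 1.82e-06 and 1.11e-05). Across all genes 19.5% rose and 17.5% fell. After siMbnl1 the counts were 1 and 6 of 22 regulators, 3 and 3 of 18 PTBP targets and 2 and 5 of 26 microexon genes, where 17% of all genes rose and 15.8% fell. Srrm2 and Srrm1, members of the same protein family as Srrm3, fell by 0.54 and 0.40 there (log2; limma adjusted p = 0.000161 and 0.000387). Rest was lower with siFmr1 than with siMbnl1 by 0.92 on the log2 scale (limma adjusted p = 3.43e-05).

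Skipping of the members' own exons was read from junction reads. The 11 tables list 177 events of these genes, all of whose 65 distinct forms match exon ends of GENCODE M21; Ptbp1 has 65 of the listed events, Ptbp2 50, Ptbp3 39, Srrm3 22 and Srrm4 1. A total of 163 averaged 20 or more junction reads a library in both sets and were tested by a quasi-binomial model of inclusion and skipping reads, with Benjamini-Hochberg adjustment over all events. None passed in any table at an adjusted p under 0.05 and a difference of at least 0.1, while 14 had an unadjusted p under 0.05 and 8 a false discovery rate under 0.05 in the authors' deposited tables. Across all events 0% passed in the cortex, hippocampus, cerebellum, liver, testis and N2a tables, 0.0545% in muscle, and 0.331%, 0.32%, 0.214% and 0.41% in the 4 co-transfection tables. The spread model was revised after calls on these tables had been seen, and the version used was chosen on simulated reads. The earlier version called 2 of the exons, which are named below. They were 1 each in the third and the fourth co-transfection table, where that version called 293 and 441 events in all.

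The tables number their 2 sets of libraries without naming the groups. In the labels, the first co-transfection table belongs to siNT pcDNA and siFmr1 pcDNA, the second to siMbnl1 pcDNA, the third to siFmr1 with nMBNL1 and the fourth to siMbnl1 with cMBNL1. Set 2 of the first, the second and the fourth table holds identical reads, as do set 1 of the first and set 2 of the third. So set 1 of every table but the first is the group named in the labels, and which of the 2 shared sets is siNT and which siFmr1 is not given.

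Inclusion of the 78-nt Ptbp1 exon, which lies in the linker region between RNA-binding domains known to differ between PTBP1 isoforms, was intermediate in every tissue. Its median over the libraries of a table was 0.519 in cortex, 0.393 in hippocampus, 0.564 in cerebellum, 0.628 in liver, 0.414 in muscle, 0.444 in testis and 0.613 in N2a cells. The brain values rest on 70, 126 and 149 junction reads in all, and the first N2a table on 4588. In the first co-transfection table the exon was included at 0.521, 0.545 and 0.529 in set 1 and at 0.481, 0.456 and 0.488 in set 2. These did not overlap, and the difference of 0.06 missed the threshold (quasi-binomial adjusted p = 0.188). Against the same set 2, siMbnl1 was at 0.532, 0.524 and 0.533 (adjusted p = 0.318) and cMBNL1 at 0.511, 0.507 and 0.520 (adjusted p = 0.444), all from the quasi-binomial fit.

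The 34-nt Ptbp1 exon, whose skipping gives a decay form, was included in most junction reads of every table. Reads of a form that decays can undercount how often the exon is skipped. Median inclusion of this exon was 1 in the 3 brain regions, 0.970 in liver, 0.987 in testis and 0.971 in N2a cells, and lowest in muscle at 0.799 (236 reads in all, range 0.727 to 0.953). In the third co-transfection table, the nMBNL1 libraries were at 0.938, 0.921 and 0.930 and the shared set at 0.965, 0.961 and 0.953, without overlap (quasi-binomial adjusted p = 0.128; false discovery rate of 0.00138 in the authors' deposited table).

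Inclusion of the paralogous Ptbp2 exon, the one that PTBP1 is known to repress, was 0.991 in cortex (512 reads) and lower outside the brain. Its skipped form is also a decay target, so junction reads can undercount its skipping. The median was 0.867 in testis (951 reads), 0.863 in muscle (206), 0.764 in N2a cells (347) and 0.632 in liver, where 92 reads in all gave a range of 0.141 to 1. The hippocampus and cerebellum tables do not list it. In the co-transfection tables the medians were 0.823, 0.814, 0.761 and 0.815. When joined to a more distant upstream exon, it was included at 0.917, 0.853 and 0.823 in the cMBNL1 libraries and at 1 in each library of the shared set. The difference of -0.14 missed the threshold (quasi-binomial adjusted p = 0.120), but the earlier version of the spread model called it (adjusted p = 0.0132), and the authors' deposited table gives a false discovery rate of 3.59e-07.

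The early exon of Ptbp3 was skipped in most transcripts. Its median inclusion was 0.261 in liver, 0.155 in muscle, 0.348 in testis and 0.282 in N2a cells. Cortex and cerebellum had 7 and 4 reads in all, too few for a level. In the third co-transfection table it was at 0.364, 0.575 and 0.416 with nMBNL1 and at 0.319, 0.213 and 0.278 in the shared set. The difference of 0.18 did not pass (quasi-binomial adjusted p = 0.103), passed in the earlier version (adjusted p = 0.00324), and has a false discovery rate of 0.0193 in the authors' deposited table. The 30-nt Srrm3 exon, joined to its nearest exons, is listed in the N2a and co-transfection tables, with medians between 0.956 and 1. Of the other 115 tested events, 114 had a mean inclusion of at least 0.9 in both sets. The other one is a 200-nt exon of Ptbp1 in the third co-transfection table, at 0.913, 0.636 and 0.846 with nMBNL1 and 1 in each library of the shared set (quasi-binomial adjusted p = 0.611; deposited false discovery rate 0.000499).

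**Figure D5:**
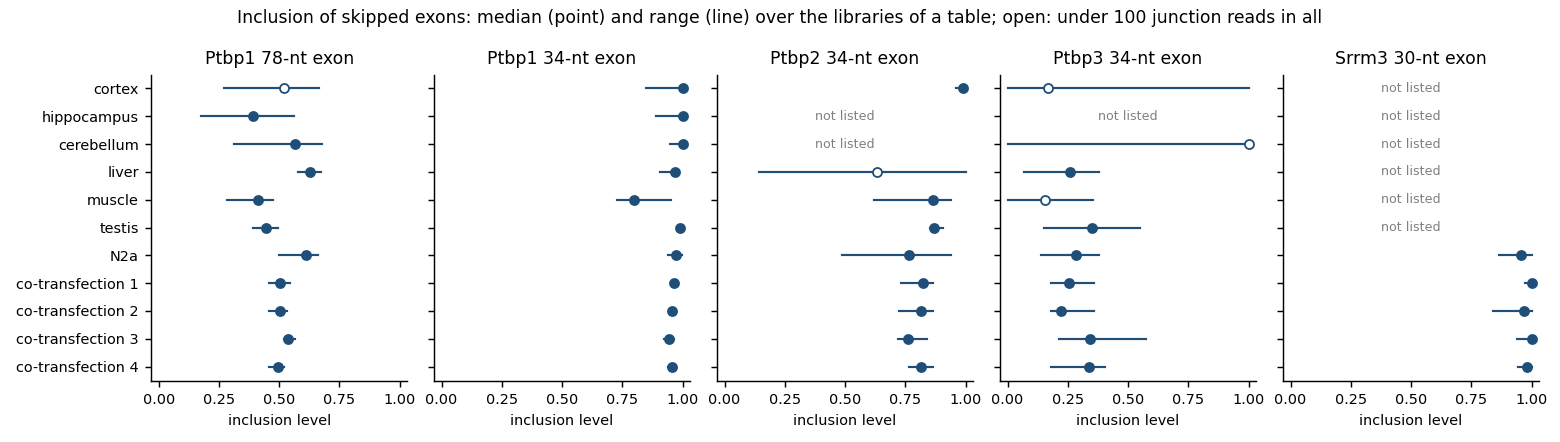
Inclusion level (0 to 1) of 5 exons of the members in the 11 skipped-exon tables; points are medians and lines the range over the libraries of both sets, and open points mark tables with under 100 junction reads in all. The 78-nt Ptbp1 exon lies near the middle in every table (medians 0.393 to 0.628). The 34-nt Ptbp1 exon lies near 1 except in muscle (median 0.7985), and the early Ptbp3 exon is low where reads suffice.

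Among microexons of at most 27 bases in genes on the SRRM list, none of those tested in the 6 tissue tables or the first N2a table passed (2 in liver to 22 in cerebellum). In the co-transfection 2 of 17 passed in the first table, 2 of 19 in the second, 0 of 23 in the third and 4 of 18 in the fourth, where 0.331%, 0.32%, 0.214% and 0.41% of all skipped exons did. All 8 were more included in set 1, as were 75.9%, 33.9% and 28.1% of all exons called in the first, the second and the fourth table, and these tables share set 2. The 4 exons behind them are shown with 10 flanking bases in lower case. Dctn1 encodes the large subunit of dynactin, Eif4g1 a translation initiation factor and Kif1b a kinesin motor. They lie at chr6:83183936-83183956 and chr6:83197319-83197333 (plus strand), chr16:20674786-20674806 (plus strand) and chr4:149265345-149265362 (minus strand), and all keep the frame.
Dctn1 21-nt exon: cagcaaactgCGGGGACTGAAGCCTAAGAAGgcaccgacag
Dctn1 15-nt exon: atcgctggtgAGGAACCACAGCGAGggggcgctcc
Eif4g1 21-nt exon: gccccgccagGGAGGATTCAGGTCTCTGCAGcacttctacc
Kif1b 18-nt exon: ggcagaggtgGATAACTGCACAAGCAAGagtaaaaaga

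The Eif4g1 microexon was included at 0.135, 0.204 and 0.186 in the shared set 2. It was at 0.342, 0.307 and 0.338 in set 1 of the first table, at 0.386, 0.377 and 0.451 with siMbnl1 and at 0.394, 0.326 and 0.397 with cMBNL1 (quasi-binomial adjusted p = 6.24e-07, 3.11e-22 and 1.94e-08). No library of set 1 overlapped with set 2. The 21-nt Dctn1 exon was at 0.0328, 0.0502 and 0.0557 in set 2, at 0.297, 0.140 and 0.255 with siMbnl1 and at 0.214, 0.216 and 0.214 with cMBNL1 (adjusted p = 1.26e-06 and 3.63e-05 by the quasi-binomial fit). The 15-nt Dctn1 exon rose from a mean of 0.269 in set 2 to 0.426 in set 1 of the first table and 0.397 with cMBNL1 (adjusted p = 0.0113 and 0.0433). The Kif1b exon rose from 0.750 to 0.890 with cMBNL1 (adjusted p = 0.0165). Srrm3 and Srrm4 levels for the same groups are those given above, and the part of either gene in these exons was not tested.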

How the data were processed

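The gene tables hold read counts per gene and TPM for each tissue and first N2a library, beside log2 fold changes and adjusted p-values of the authors' comparisons, all as deposited. The co-transfection table holds a normalized signal per gene, deposited by the authors without counts. The splicing tables hold rMATS inclusion and skipping junction reads, an inclusion level (a score from 0 to 1) and p-values, per the file headers. The submitters' processing notes name CASAVA, FastQC 0.11.8, Trimmomatic 0.39, Bowtie2 2.3.5, STAR 2.6.1, RSEM 1.3.1 and DESeq2 1.16.1, with the builds GRCm38 and mm10 and no order. In the muscle table, 4 columns of per-sample values match no sample and were not used.

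Here counts were tested with edgeR 4.0.16 (filterByExpr, TMM, quasi-likelihood F test), in fits of 1 tissue, of the 9 WT brain libraries for regions and of all 18 for genotype effects; normalized values with limma 3.58.1 after adding 1 and taking log2, where the mean was 1 or more; and junction reads with a quasi-binomial model for events with a mean of at least 20 reads in both sets. P-values were adjusted by Benjamini-Hochberg, with a threshold of 0.05, and for exons an inclusion difference of at least 0.1. The dispersion prior of the exon model, taken from events with at least 30 reads of the rarer form, replaced one from all tested events after calls on these tables had been seen; the choice was made on simulated reads, and the earlier version called 2 member exons against 0. Scripts were tested on simulated data. In each list, up to 4 genes past the threshold with the smallest adjusted p were eligible to be named. One listed gene is not reported here. Alternatives were DESeq2 1.42.0, other size factors, filters and pseudocounts, a replicate block and leaving out each library. Members and lists were chosen with earlier results of these data known.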

Additional observations from a re-analysis of the deposited data

Results flagged for a closer look

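Srrm3 and Srrm4 each moved in opposite directions in a pair of tissues or cells, with no overlap in CPM between the libraries compared. The difference between the effects was not tested. All KO cortex libraries were below WT in Srrm3 (log2 fold change -0.168), and all siFmr1 libraries of N2a cells were above siNT in CPM (0.443). In TPM those N2a groups overlapped in Srrm3. All KO cerebellum libraries were above WT in Srrm4 (0.117), and all KO liver libraries were below (-1.78). None of the 4 effects passed edgeR's test after adjustment.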

How the results depend on the processing

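Calls on the members changed mostly with the samples in the fit. With only the 2 groups compared, members called were 0 for siMbnl1 and 1 for cMBNL1 against siNT, 3 for nMBNL1 on siFmr1 and 1 for cMBNL1 on siMbnl1. In that order, 2428, 3027, 2812 and 2854 genes were called in all. A mean of at least 10 also gave 1 member for cMBNL1 on siMbnl1, of 451 genes called. DESeq2 called 1 member in liver, of 277 genes called there. Called member exons were 2 and 1 in the third and the fourth co-transfection table by the deposited false discovery rate, of 895 and 1585 exons called. With the dispersion prior from all tested events, an alternative chosen after seeing the data, 1 was called in each, of 293 and 441. The sign reversed for Ptbp2 between WT cortex and hippocampus with DESeq2 (-1.62e-06) and other size factors (-0.00117), and for Srrm4 there with KO libraries (-0.168, edgeR adjusted p = 0.0334). The causes were not tested.

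The replicate numbers pair no samples by the data: no comparison had every same-numbered correlation over 0.1. The replicate block changed no member call, reversed Ptbp3 in liver (0.00646) and Ptbp1 in N2a cells (-0.0285), and left 1, 1, 24, 31 and 377 genes called in cortex, hippocampus, liver, muscle and testis, against 3, 31, 49, 512 and 661.

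Leaving out 1 library each, members called ran from 0 to 1 in liver and testis and from 1 to 2 between WT cortex and hippocampus. Log2 ranges that crossed 0 were -0.282 to 0.0226 for Ptbp1 in hippocampus; -0.109 to 0.0222 for Ptbp2, -0.0206 to 0.1005 for Ptbp3 and -0.00986 to 0.0737 for Srrm3 in cerebellum; -0.240 to 0.191 for Ptbp2 and -0.221 to 0.153 for Ptbp3 in liver; and -0.186 to 0.0552 for Ptbp2 in muscle. In N2a cells they were -0.244 to 0.471 for Ptbp1, -0.206 to 0.469 for Ptbp2 and -0.355 to 1.07 for Ptbp3. Ptbp2 between WT cortex and hippocampus ran from -0.0480 to 0.0519. Genotype effects of cortex against hippocampus ran from -0.175 to 0.122 for Ptbp1 and -0.0233 to 0.157 for Ptbp3, and of hippocampus against cerebellum from -0.224 to 0.0739 for Ptbp1 and -0.0329 to 0.0531 for Srrm4. With siMbnl1 against siNT, Ptbp2 ran from -0.1003 to 0.0204 and Srrm3 from -0.00366 to 0.314. With cMBNL1 on siMbnl1, Ptbp2 ran from -0.0943 to 0.0264 and Srrm4 from -0.0455 to 0.00810, and between siFmr1 and siMbnl1, Ptbp1 from -0.0633 to 0.0546 and Ptbp3 from -0.0435 to 0.0305.

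Counts over all genes moved more. With DESeq2 the calls were 904 (cortex, 3 with edgeR), 247 (hippocampus, 31), 92 (cerebellum, 33), 277 (liver, 49) and 1093 (muscle, 512), and 61, 231 and 13 genotype effects (0, 0 and 1). Without 1 library, calls fell to 1 in cortex and hippocampus but rose to 1102 in cortex without the third WT library, and ran from 6 (the first KO) to 256 (the third WT) in cerebellum, 13 (the third KO) to 284 (the first WT) in liver, 173 (the second WT) to 1256 (the first KO) in testis and down to 18 (the third KO) in muscle. They fell to 28 for nMBNL1 without the first siFmr1 library and 37 for cMBNL1 without the first siMbnl1 library, reached 179, 465 and 10 genotype effects, and fell to 0 exons in the muscle table and 82, 90, 65 and 104 in the co-transfection tables. The shares of all genes and exons beside the members rest on these counts. One fit of 18 brain libraries called 1277 in cortex and 11 in cerebellum. With only the 2 groups compared, the 4 comparisons with siNT gave 3658, 2428, 4166 and 3027 genes (6013, 5330, 6670 and 5478 in the fit of all groups), and the MBNL1 plasmids 2812 and 2854 (286 and 364). The deposited false discovery rate called 71, 19, 14, 165, 215, 150 and 220 exons in the tissue and N2a tables and 1134, 1379, 895 and 1585 in the co-transfection; the prior from all events called 4, 30, 9 and 2 in liver, muscle, testis and N2a and 416, 306, 293 and 441 in the co-transfection; with no minimum difference, 3 passed in liver, 8 in testis and 273, 270, 463 and 625 in the co-transfection. Low counts limited Srrm3 in testis and the brain exons of Ptbp1.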
